A study of Homo sapiens with 18 samples.

Results

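TENM1, PLIN2, CHRM3, RASGRF1 and TMEM179 are 5 of the 58870 gene rows measured by bulk mRNA sequencing in HEK293 Flp-In cells. They were selected on measured values, as genes whose RNA differed strongly between the NRF1-ΔE7 line and the NRF1-FL line whether endogenous NRF1 was depleted or not. That difference and everything computed from it are therefore given as a description, without a test. Each gene was then set beside cells without a transgene to see which line departed, and its response to siRNA was tested within each background. All 5 passed the filter on low counts that left 17962 genes to test. TENM1, CHRM3 and PLIN2 were high in the NRF1-ΔE7 line, whereas RASGRF1 and TMEM179 were high in the NRF1-FL line. The selection placed line above siRNA, and for TMEM179 the data go against that order, because siNRF1 lowered its RNA more than 10-fold in both backgrounds where it was not high.

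HEK293 Flp-In cells are a human embryonic kidney line with a single recombination site into which a transgene is placed. NRF1, nuclear respiratory factor 1, regulates transcription from GC-rich promoters, many of them of mitochondrial and housekeeping genes. The 18 libraries fall into 6 conditions of 3 libraries. Cells carried no transgene, FLAG-tagged full-length NRF1 (NRF1-FL) or FLAG-tagged NRF1 lacking exon 7 (NRF1-ΔE7), and each of these was transfected with control siRNA that targets nothing (siNT) or siRNA that depletes endogenous NRF1 (siNRF1). Both transgenes resist the siRNA and are switched on by doxycycline at 0.1 ng/mL, and the labels give doxycycline for every condition, also for cells without a transgene. The labels place induction 24 h after transfection and the study's methods place it 6 h after, with harvest 48 h after induction. Each transgenic line was grown from hygromycin-resistant colonies, so each isoform is represented by 1 line. The sources used here do not say whether a line is a single clone, or whether the cells without a transgene are the direct parent of both lines. The isoform and the history of the line that carries it cannot be told apart. Nothing states that the 3 libraries of a condition came from separate cultures, so p-values measure only the spread between these libraries.

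The library totals ran from 31.2 to 44.8 M counts. NRF1 itself, the target of the siRNA, fell from a mean of 30.1 CPM (SD 0.929, n = 3) to 8.05 CPM (SD 1.07, n = 3) in cells without a transgene. CPM is the read count scaled to library size, here with the TMM factors of edgeR. With the transgene counted in the same row, NRF1 stood at 54.4 and 49.6 CPM under siNT and siNRF1 in the NRF1-FL line, and at 58.5 and 38.3 CPM in the NRF1-ΔE7 line. Of the kidney lineage markers 7 of 9 had a mean of at least 1 CPM, as did 10 of 15 neuronal, 5 of 7 epithelial, 2 of 6 fibroblast and 0 of 8 blood and endothelial markers. The summed neuronal markers ranged from 418 to 470 CPM without a transgene, from 411 to 480 CPM in the NRF1-FL line and from 364 to 413 CPM in the NRF1-ΔE7 line. Epithelial sums ranged from 425 to 622, from 435 to 638 and from 460 to 733 CPM in the same order. NEFL alone averaged 207 CPM of the neuronal sum. The median difference of the 12 tested neuronal markers, NRF1-ΔE7 against NRF1-FL line, was 0.06 under siNT and -0.27 under siNRF1 (log2). By the call rule given below, 1 of these (NEFM) was higher under siNT and 3 were lower under siNRF1. SIX2, a kidney lineage marker, was called lower in the NRF1-ΔE7 line under both siRNAs (-0.71 and -0.63). The part of these markers in the results below was not tested. In bulk RNA fewer expressing cells and less RNA per cell cannot be told apart.

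The 5 genes have separate roles and lie on 5 chromosomes. TENM1 encodes teneurin-1, a large transmembrane adhesion protein of neurons that binds latrophilin receptors across cell contacts. CHRM3 encodes the M3 muscarinic acetylcholine receptor, which acts through Gq and phospholipase C to release calcium. PLIN2 encodes perilipin-2, a coat protein of lipid droplets whose transcription is induced by fatty acids through PPAR receptors. RASGRF1 encodes a calcium-responsive guanine nucleotide exchange factor that activates Ras in neurons. TMEM179 encodes a transmembrane protein expressed in brain, with TMEM179B as its relative.

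RefSeq lists a promoter (GRCh38.p14, 300 bases around the start) for 4 of the 5 genes, and RASGRF1 was not matched. The TENM1 and CHRM3 promoters are shown because they share a 12-base run and, a few bases downstream, an 11-base run, both in capitals. The runs were found by searching these promoters for their longest common stretches, so both genes hold them by construction. No other pair among the 5 genes was searched in this way. TMEM179 is shown because its promoter holds GCGCANGCG, the consensus of NRF1 without its last base, also in capitals.
TENM1 (chrX:125204318-125204437, minus strand): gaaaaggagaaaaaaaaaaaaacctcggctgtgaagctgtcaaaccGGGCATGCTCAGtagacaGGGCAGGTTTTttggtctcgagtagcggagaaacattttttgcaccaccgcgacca
CHRM3 (chr1:239386468-239386587, plus strand): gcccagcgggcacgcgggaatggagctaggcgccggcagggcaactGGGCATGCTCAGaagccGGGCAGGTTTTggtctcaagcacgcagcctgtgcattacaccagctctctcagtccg
TMEM179 (chr14:104604802-104604921, minus strand): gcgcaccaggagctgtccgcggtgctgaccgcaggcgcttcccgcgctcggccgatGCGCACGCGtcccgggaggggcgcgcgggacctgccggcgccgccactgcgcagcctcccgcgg
The first capital lies at position -79 from the start in TENM1, at -54 in CHRM3 and at -93 in TMEM179. Searched on both strands, the run GGGCATGCTCAG occurred in 26 of the 35116 promoters (0.074%), and GGGCAGGTTTT in 12 (0.0342%). Only 4 promoters (0.0114%) held both runs, namely TENM1, CHRM3, one start of CDYL, and LOC124905211, whose promoter overlaps that of TENM1 on the opposite strand. GCGCANGCG occurred in 2640 promoters (7.52%), and the promoters of TENM1, CHRM3 and PLIN2 did not hold it. The promoters had a GC content of 57.3% for TENM1, 66.0% for CHRM3, 76.7% for PLIN2 and 77% for TMEM179, beside a median of 58.7% over all promoters.

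TENM1 RNA was abundant only in the NRF1-ΔE7 line among these libraries. The gene (ENSG00000009694.13) lies on the minus strand of chrX:124375903-125204312 (hg38). In the NRF1-ΔE7 line it stood at 85.1, 84.5 and 83.9 CPM under siNT and at 39.96, 38.6 and 35.8 CPM under siNRF1. In the NRF1-FL line the libraries held 1.09, 1.02 and 1.03 CPM under siNT and 0.538, 0.590 and 0.663 CPM under siNRF1. Cells without a transgene held 0.723, 0.740 and 0.775 CPM under siNT and 0.665, 0.533 and 0.432 CPM under siNRF1. The lowest NRF1-ΔE7 library exceeded the highest of the other 12 by 32.8-fold, and the NRF1-FL line stayed near the cells without a transgene. Against the NRF1-FL line the log2 fold-change was 6.33 (SE 0.0718) under siNT and 5.99 (SE 0.0841) under siNRF1. Against cells without a transgene the NRF1-ΔE7 line differed by 6.82 and 6.12 on the log2 scale, and the NRF1-FL line by 0.48 and 0.13. Among the 6 conditions in order of level, only the lowest neighbours, siNRF1 with NRF1-FL and siNRF1 without a transgene, overlapped. In GENCODE v44 the end of TENM1 overlaps STAG2, a cohesin subunit gene on the opposite strand, and the sources used here do not state whether counting used strand, so their reads may be shared. STAG2 averaged 435 CPM and its line differences were -0.02 and -0.03 (log2).

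CHRM3 RNA was also high in the NRF1-ΔE7 line, at a level of a few CPM. The gene (ENSG00000133019.11) lies on the plus strand of chr1:239386565-239915452 (hg38). The NRF1-ΔE7 libraries held 2.82, 3.08 and 3.21 CPM under siNT and 2.14, 2.07 and 2.702 CPM under siNRF1. The NRF1-FL libraries held 0.345, 0.241 and 0.415 CPM under siNT and 0.619, 0.661 and 0.7497 CPM under siNRF1. Without a transgene the values were 0.249, 0.269 and 0.316 CPM under siNT and 0.142, 0.326 and 0.576 CPM under siNRF1. All 6 NRF1-ΔE7 libraries stood above the other 12, the lowest by 2.76-fold over the highest elsewhere. The line difference was 3.17 (SE 0.265) under siNT and 1.77 (SE 0.238) under siNRF1 on the log2 scale. The NRF1-ΔE7 line exceeded cells without a transgene by 3.44 and 2.72, and the NRF1-FL line by 0.27 (SE 0.379) and 0.95 (SE 0.312). In order of level the 3 lowest conditions overlapped with their neighbours, and the NRF1-FL libraries under siNRF1 stood above them.

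PLIN2 RNA was higher in the NRF1-ΔE7 line by a smaller factor. The gene (ENSG00000147872.10) lies on the minus strand of chr9:19108375-19149290 (hg38). The NRF1-ΔE7 libraries held 1.90, 2.44 and 2.74 CPM under siNT and 2.29, 1.99 and 2.26 CPM under siNRF1. The NRF1-FL libraries held 0.345, 0.483 and 0.342 CPM under siNT and 0.538, 0.331 and 0.490 CPM under siNRF1. Cells without a transgene held 0.524, 0.605 and 0.603 CPM under siNT and 0.641, 0.533 and 0.792 CPM under siNRF1. The 6 NRF1-ΔE7 libraries again did not overlap with the other 12, with a gap of 2.40-fold, and within each side neighbouring conditions overlapped. The line difference was 2.59 (SE 0.221) and 2.28 (SE 0.214) under siNT and siNRF1. The NRF1-ΔE7 line exceeded cells without a transgene by 2.04 and 1.72, while the NRF1-FL line lay at -0.56 (SE 0.267) and -0.56 (SE 0.249), all on the log2 scale.

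**Figure D1:**
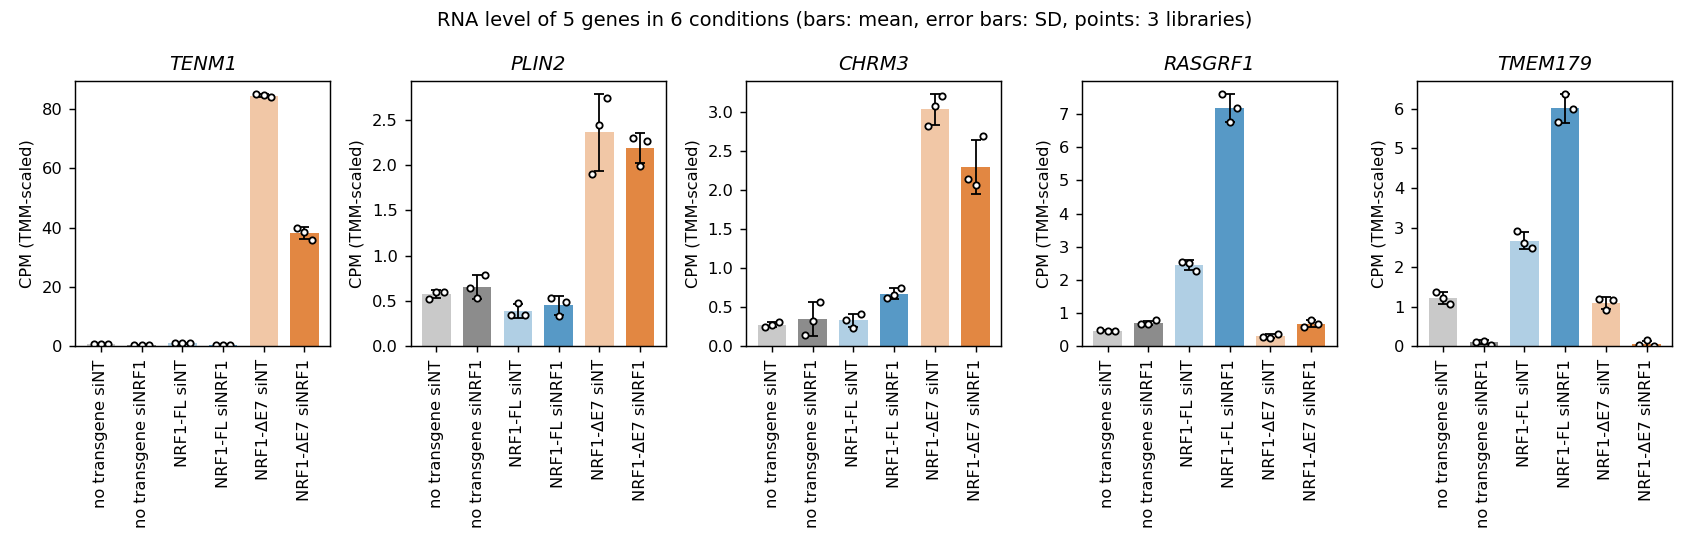
RNA level (CPM, linear axis from 0) of each gene in the 6 conditions, with bars for the mean, error bars for the SD and points for the 3 libraries. TENM1, PLIN2 and CHRM3 are high in the NRF1-ΔE7 line (TENM1 at 84.5 and 38.1 CPM on average), and RASGRF1 and TMEM179 in the NRF1-FL line.

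RASGRF1 departed in the other line. The gene (ENSG00000058335.15) lies on the minus strand of chr15:78959906-79090780 (hg38). The NRF1-FL libraries held 2.56, 2.52 and 2.27 CPM under siNT and 7.61, 6.75 and 7.18 CPM under siNRF1. The NRF1-ΔE7 libraries held 0.297, 0.262 and 0.374 CPM under siNT and 0.590, 0.808 and 0.670 CPM under siNRF1. Cells without a transgene held 0.499, 0.471 and 0.459 CPM under siNT and 0.689, 0.682 and 0.792 CPM under siNRF1. The lowest NRF1-FL library exceeded the highest of the other 12 by 2.81-fold. The line difference was -2.95 (SE 0.178) under siNT and -3.38 (SE 0.138) under siNRF1 on the log2 scale. The NRF1-FL line exceeded cells without a transgene by 2.35 and 3.31, whereas the NRF1-ΔE7 line lay at -0.60 (SE 0.235) and -0.08 (SE 0.176). In order of level only the siNRF1 libraries without a transgene and with NRF1-ΔE7 overlapped, and the NRF1-ΔE7 libraries under siNT were the lowest.

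TMEM179 was likewise highest in the NRF1-FL line, but its level elsewhere depended on the siRNA. The gene (ENSG00000258986.7) lies on the minus strand of chr14:104474678-104605647 (hg38). The NRF1-FL libraries held 2.90, 2.60 and 2.49 CPM under siNT and 5.65, 6.38 and 5.997 CPM under siNRF1. The NRF1-ΔE7 libraries held 1.19, 0.930 and 1.17 CPM under siNT, and under siNRF1 they held 2, 6 and 0 counts. Cells without a transgene held 1.37, 1.21 and 1.06 CPM under siNT and 5, 5 and 2 counts under siNRF1. For the library at 0 counts, 3 counts allow a level of up to 0.0628 CPM, an allowance for counting error only. The lowest NRF1-FL library exceeded the highest of the other 12 by 1.81-fold, and the remaining conditions paired by siRNA, with the NRF1-ΔE7 libraries overlapping those without a transgene in each pair. The line difference was -1.27 (SE 0.212) under siNT and -6.56 (SE 0.309) under siNRF1 on the log2 scale. The NRF1-FL line exceeded cells without a transgene by 1.12 and 5.83, and the NRF1-ΔE7 line lay at -0.15 (SE 0.235) and -0.73 (SE 0.635).

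**Figure D2:**
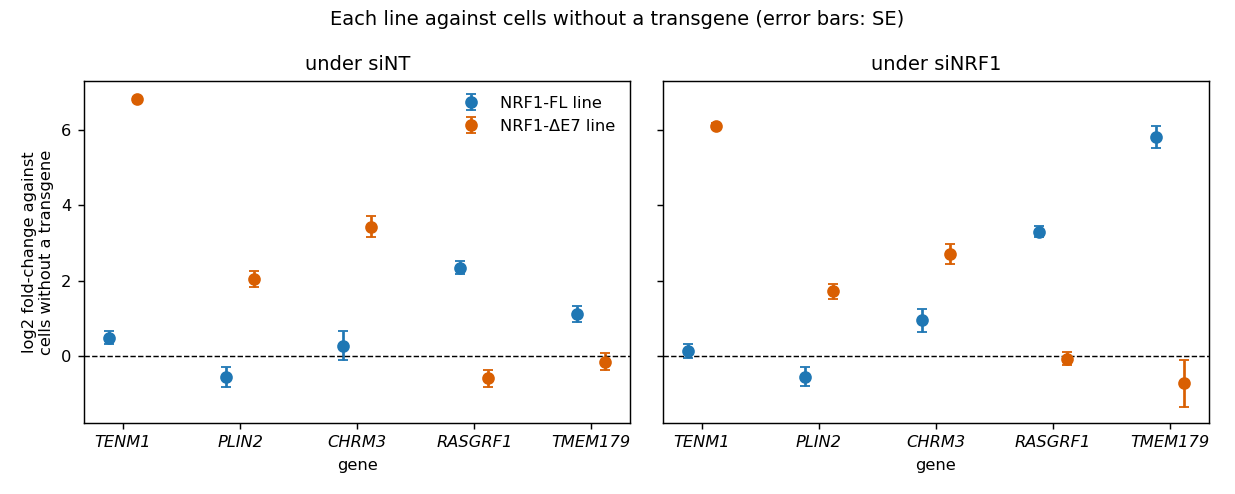
Log2 fold-change of each line against cells without a transgene under siNT (left) and siNRF1 (right), with points for the fitted value and error bars for the SE. The NRF1-ΔE7 line lies far above 0 for TENM1, PLIN2 and CHRM3, and the NRF1-FL line for RASGRF1 and TMEM179, where it reaches 5.83 under siNRF1.

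Per kilobase of annotated exon, TENM1 in the NRF1-ΔE7 line under siNT was the highest of these levels at 6.24 CPM per kb. TMEM179 in the NRF1-FL line under siNRF1 reached 1.12 CPM per kb and RASGRF1 in the same libraries 0.720 CPM per kb. The highest means of PLIN2 and CHRM3 were 0.471 and 0.200 CPM per kb, both in the NRF1-ΔE7 line under siNT.

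Among all 17962 genes tested, 126 differed between the lines by more than 1 on the log2 scale in the same direction under both siRNAs, 64 of them higher and 62 lower in the NRF1-ΔE7 line. The line farther from cells without a transgene was NRF1-ΔE7 for 54 of these genes and NRF1-FL for 72. For the 37 of them with a mean of at least 1 CPM it was 18 and 19. For the 232 genes that met the call rule given below under both siRNAs in the same direction, it was 120 and 112. Ranked by the smaller of the differences under siNT and siNRF1, TENM1 was at rank 2, RASGRF1 at 14, PLIN2 at 19, CHRM3 at 35 and TMEM179 at 72. With genes of at least 1 CPM on average the ranks were 1, 3, 4, 6 and 13. FZD10-AS1, an antisense RNA at rank 2 of that list, stood at 2.35 and 3.71 CPM in the NRF1-FL line under siNT and siNRF1 and below 0.1 CPM on average elsewhere, with the limit that reads of an antisense RNA and its partner may not be told apart. MXRA8 stood at rank 5, PCDH20 at rank 7 and ALDH1L2 at rank 8. ALDH1L2 was higher in the NRF1-ΔE7 line by 2.01 under siNT and 1.54 under siNRF1 (log2). Against cells without a transgene it lay at -0.93 in the NRF1-FL line and at 0.84 in the NRF1-ΔE7 line, as means over the siRNAs. TMEM179 was the next after IRX4, at a smaller difference of 1.27, so the 5 genes are examples and not the top of a list. By the call rule used throughout (edgeR, adjusted p below 0.05 with a log2 fold-change beyond 0.5 in size), 2.21% of genes differed between the lines under siNT and 6.21% under siNRF1.

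**Figure D3:**
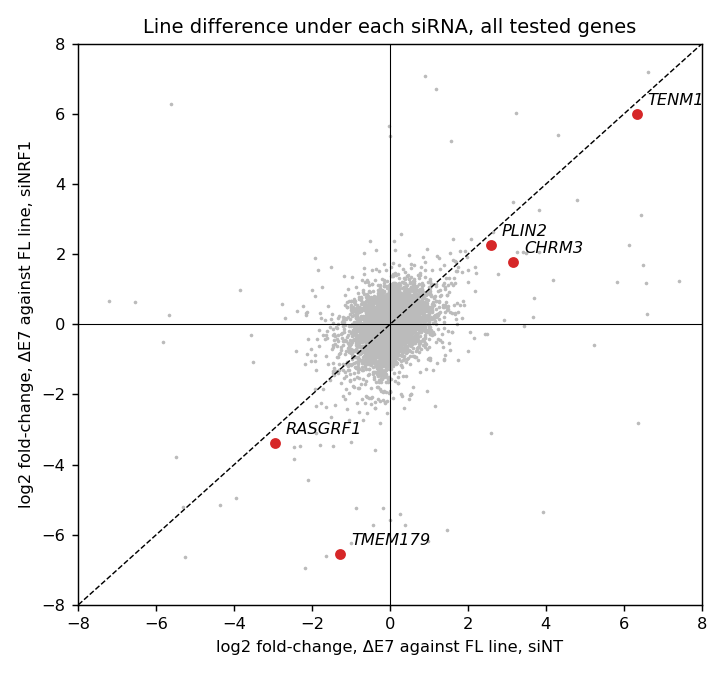
Log2 fold-change of the NRF1-ΔE7 against the NRF1-FL line under siNT (x) and siNRF1 (y) for all tested genes (grey) and the 5 selected genes (red), with the diagonal dashed and 2 genes beyond the axes. TENM1, PLIN2 and RASGRF1 lie near the diagonal, and TMEM179 lies far below it at -1.27 and -6.56.

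The siRNA contrasts were not the selection rule and ask whether each gene also responded to NRF1 depletion. Only the contrast without a transgene used no library of the selection. Those within the lines, and the interaction terms, share libraries with it, so their p-values are not independent of the choice of genes. In cells without a transgene 2 of the 5 genes were called, beside 28.9% of all genes tested. RASGRF1 rose by 0.59 on the log2 scale (SE 0.197, edgeR adjusted p = 0.0296) and was higher in all 3 siNRF1 libraries than in any siNT library. This call was lost with DESeq2 (adjusted p = 0.0649), without the filter (0.0723), in a fit of these libraries alone (0.0583) and without any 1 of 4 libraries (siNRF1 replicate 3 or siNT replicate 1, 2 or 3). TMEM179 fell by 3.53 (SE 0.359, edgeR adjusted p = 8.52e-09), from 128 summed counts over 3 libraries to 12. TENM1 (-0.45, adjusted p = 0.0907), PLIN2 (0.20, 95% interval -0.30 to 0.70) and CHRM3 (0.33, 95% interval -0.45 to 1.10) did not pass the test in edgeR.

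In the NRF1-FL line 4 of the 5 genes were called by edgeR, beside 27.1% of all genes. RASGRF1 rose by 1.55 (SE 0.119, adjusted p = 7.2e-11), TMEM179 by 1.175 (SE 0.179, adjusted p = 4.36e-06) and CHRM3 by 1.00 (SE 0.316, adjusted p = 0.0084). TENM1 fell by 0.81 (SE 0.170, adjusted p = 4.05e-04). For each of these 4 genes the siNRF1 and siNT libraries of the line did not overlap, which was not counted over all genes. PLIN2 did not pass the test (0.20, 95% interval -0.37 to 0.77).

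In the NRF1-ΔE7 line 3 of the 5 genes were called by edgeR, beside 32.8% of all genes. TENM1 fell by 1.15 (SE 0.0425, adjusted p = 8.04e-17), to 38.1 CPM (SD 2.10, n = 3), which was still above every library without NRF1-ΔE7. TMEM179 fell by 4.11 (SE 0.391, adjusted p = 2.35e-09), from 119 summed counts to 8. RASGRF1 rose by 1.12 (SE 0.211, adjusted p = 1.09e-04). CHRM3 (-0.40, 95% interval -0.81 to 0.02) and PLIN2 (-0.11, 95% interval -0.47 to 0.24) did not pass. PLIN2 was thus the only 1 of the 5 not called for siRNA in any background, which does not show that it was unaffected.

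**Figure D4:**
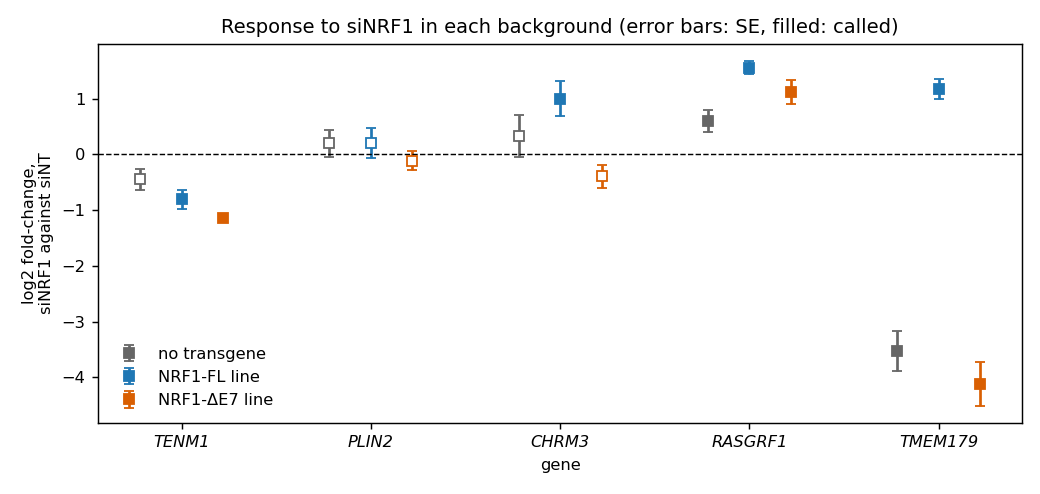
Log2 fold-change of siNRF1 against siNT for each gene in cells without a transgene (grey), the NRF1-FL line (blue) and the NRF1-ΔE7 line (orange), with SE as error bars and filled squares where the call rule was met. TMEM179 lies at -3.53 and -4.11 in grey and orange and at 1.175 in blue, and PLIN2 is open throughout.

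Whether the siRNA response differed between backgrounds was tested by interaction terms. These use libraries of the lines that also chose the genes, so their p-values are not independent of that choice. Each is also the difference between contrasts of a line against cells without a transgene, which were given above without a test. The response in the NRF1-FL line differed from that in cells without a transgene for 2 of the 5 genes, beside 1.90% of all genes. For TMEM179 the responses differed by 4.71 (log2, SE 0.399, edgeR adjusted p = 1.45e-08), a fall against a rise. For RASGRF1 they differed by 0.96 (SE 0.236, edgeR adjusted p = 0.0188), a rise in both with the larger in the NRF1-FL line. This RASGRF1 call was lost with DESeq2 (adjusted p = 0.0731), without the filter (0.0732) and without any 1 of the 3 siNT libraries that carry no transgene.

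The siRNA response of the NRF1-ΔE7 line minus that of the NRF1-FL line is the difference between the line contrasts that chose the genes, so it is given without a test. On the log2 scale it was -5.29 (SE 0.427) for TMEM179, -1.40 (SE 0.375) for CHRM3, and between -0.43 and -0.32 for RASGRF1, TENM1 and PLIN2. The difference in siRNA response between the NRF1-ΔE7 line and cells without a transgene was called by edgeR for 0 of the 5 genes, beside 0.156% of all genes. At an unadjusted p under 0.05 there was 1 gene, and DESeq2 called 0. For TENM1 that difference was -0.70 (95% interval -1.11 to -0.29, adjusted p = 0.107), and for TMEM179 it was -0.58 (95% interval -1.97 to 0.81).

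The genes whose levels most resembled each of the 5 across the 18 libraries were found by Pearson r of log2 CPM. This is a description of points that share lines and siRNA, and only genes with a mean of at least 1 CPM were ranked. SH3KBP1, an adaptor of receptor endocytosis, was closest to TENM1 (r = 0.972), with 41.4 and 37.6 CPM in the NRF1-ΔE7 line and 27.5 to 29.95 CPM on average elsewhere. GLG1, a Golgi glycoprotein gene, followed (r = 0.965), and GABRA5, VEGFC and ZNF354C completed the 5. VEGFC and GABRA5 were also among the 5 closest to CHRM3, led by JUP, the gene of plakoglobin (r = 0.925), with PCDH20 and MICA. ZNF354C, a zinc finger gene, was closest to PLIN2 (r = 0.960), ahead of ZNF90, LAMC3, AMBN and ATL3. TFDP1, which encodes the partner of E2F factors, was closest to RASGRF1 (r = 0.956), with 365 and 404 CPM in the NRF1-FL line under siNT and siNRF1 and 304 to 348 CPM on average elsewhere. ARHGEF4, UTP14A, ARMC4 and RNF219 came next. GPATCH11 was closest to TMEM179 (r = 0.974), before HSPA4L, MKKS, ADCY1 and GLRB. Its level fell from 36.8 to 29.6 CPM under siNRF1 without a transgene and stood at 38.1 and 41.7 CPM in the NRF1-FL line. Among the 5 genes themselves r was 0.933 for TENM1 with PLIN2, 0.912 for TENM1 with CHRM3, 0.870 for PLIN2 with CHRM3 and 0.601 for RASGRF1 with TMEM179.

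The chromosomal neighbours of the 5 genes were compared between the lines in the same way. Of 29 genes among the 3 nearest tested on each side of each gene, 1 was called between the lines under siNT and 4 under siNRF1, which is 3.45% and 13.8% beside 2.21% and 6.21% of all genes. CTSH, the gene of the lysosomal protease cathepsin H next to RASGRF1, was higher in the NRF1-ΔE7 line by 0.62 and 0.61 (log2, edgeR adjusted p = 2.53e-05 and 2.95e-06), opposite in sign to RASGRF1. Also near RASGRF1, TMED3 (-0.87, adjusted p = 5.14e-14) and MINAR1 (-0.69, adjusted p = 0.00286) were lower in the NRF1-ΔE7 line under siNRF1. APLN, the third tested gene to the right of TENM1, was lower under siNRF1 (-0.95, adjusted p = 1.83e-05). The nearest tested genes were not always close. Between lower coordinates, APLN lay at 5269 kb from TENM1 and ACTN2 at -2722 kb from CHRM3, whereas CTSH lay at -38.8 kb from RASGRF1. The 6 neighbours of PLIN2, 5 of CHRM3 and 6 of TMEM179 were not called under either siRNA. Those of PLIN2 were ADAMTSL1, RRAGA, HAUS6, DENND4C, AL391834.1 and AL391834.2. Those of CHRM3 were ACTN2, MTR, RYR2, FMN2 and RGS7, and those of TMEM179 were ATP5MPL, KIF26A, AL359399.1, INF2, ADSSL1 and SIVA1. Over these 29 neighbours the median line difference was 0.02 under siNT and 0.04 under siNRF1, beside -0.01 and 0.00 over all genes.

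**Figure D5:**
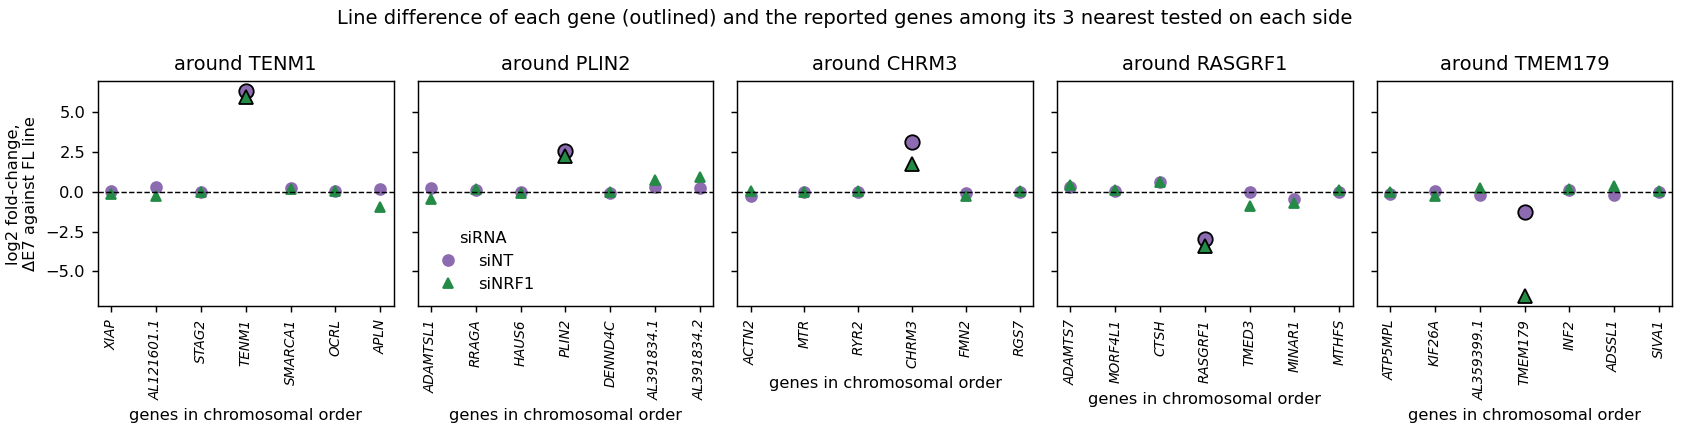
Log2 fold-change of the NRF1-ΔE7 against the NRF1-FL line for each selected gene (outlined) and 29 genes among the 3 nearest tested on either side, in chromosomal order (not to scale), under siNT (circles) and siNRF1 (triangles). All 29 neighbours lie between -0.95 and 0.95, well inside the selected genes' differences of 1.27 or more in size.

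None of the other tested genes that hold the 12-base promoter run shared by TENM1 and CHRM3 was called higher in the NRF1-ΔE7 line. Higher calls were also few over all 17962 genes tested, with 189 under siNT and 379 under siNRF1. Of 20 genes tested with this run, edgeR called 0 between the lines under siNT (9 at an unadjusted p under 0.05, 0 by DESeq2) beside 2.21% of all genes. Under siNRF1 it called 4 of 20 (20%, beside 6.21% of all genes), namely DDAH1, EVC, PANK1 and PTPN3, all lower in the NRF1-ΔE7 line. The line differences of the 20 genes ran from -0.78 to 0.12 under siNT and from -0.88 to 0.14 under siNRF1 (log2). For siNRF1 against siNT, edgeR called 11 of the 20 without a transgene (55%, beside 28.9% of all genes), 10 of them lower. It called 7 in the NRF1-FL line (35%, beside 27.1%) and 12 in the NRF1-ΔE7 line (60%, beside 32.8%). CDYL, which holds both runs and encodes a chromatin reader, stood at 43.6 and 39.7 CPM in the NRF1-ΔE7 line and at 44.5 and 46.8 CPM in the NRF1-FL line under siNT and siNRF1, with line differences of -0.03 and -0.24 that were not called.

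Of 82 tested genes of the same families and pathways, edgeR called 5 between the lines under siNT and 5 under siNRF1, all lower in the NRF1-ΔE7 line. That is 6.10% under each siRNA, beside 2.21% and 6.21% of all genes, and DESeq2 called 4 and 4. Among 13 genes of teneurins, latrophilins and their FLRT and UNC5 partners other than TENM1, 10 were tested. Under siNT 2 of the 10 (20%, beside 2.21% of all genes) were lower in the NRF1-ΔE7 line, namely TENM4 and UNC5B, a netrin receptor gene, and under siNRF1 edgeR called 0 (6 at an unadjusted p under 0.05, 0 by DESeq2). The median line difference of this list was -0.14 under siNT and -0.25 under siNRF1, beside -0.01 and 0.00 over all genes. TENM3 averaged 65.0 CPM with line differences of -0.01 and -0.14, TENM4 had -0.63 and -0.37, and TENM2 did not pass the filter. None of ADGRL1, ADGRL2 and ADGRL3, which encode latrophilins, was called.

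Among 27 lipid droplet genes other than PLIN2, 22 were tested. Of these 22, 1 was called lower in the NRF1-ΔE7 line under siNT and 2 under siNRF1, beside 2.21% and 6.21% of all genes. DGAT2, which makes triacylglycerol, was lower under both siRNAs (-0.62 and -0.85, edgeR adjusted p = 0.0264 and 2.03e-04), and MGLL, a monoacylglycerol lipase gene, under siNRF1. The list medians were 0.02 and 0.02. PLIN3, the perilipin with the highest level here at 33.3 CPM, was higher in the NRF1-ΔE7 line by 0.44 and 0.24, as PLIN2 was. The edgeR adjusted p was 2.18e-07 and 9.35e-05, but both differences were under the fold threshold. Against cells without a transgene the NRF1-ΔE7 line was higher by 0.503 under siNT, which was called (edgeR adjusted p = 4.06e-08). Under siNRF1 that PLIN3 difference was 0.234, which was not called. Of 19 PPAR target genes other than PLIN2, 12 were tested and edgeR called 0 under siNT and 0 under siNRF1 (5 and 7 at an unadjusted p under 0.05, 0 and 0 by DESeq2), with medians of 0.05 and 0.06.

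Among 23 genes of muscarinic receptors and Gq signalling other than CHRM3, 18 were tested. Under siNT edgeR called 0 (7 at an unadjusted p under 0.05, 0 by DESeq2), beside 2.21% of all genes. Under siNRF1 it called 2, beside 6.21% of all genes, with PLCB2 and PLCB4, phospholipase C genes, lower in the NRF1-ΔE7 line. DESeq2 called PLCB4 and not PLCB2, which averaged 0.578 CPM (-0.84, edgeR adjusted p = 0.0379). The list medians were -0.02 and -0.16. CHRM1, CHRM2 and CHRM5 did not pass the filter, and CHRM4 differed by 0.26 and -0.17, which did not pass the test.

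Among 20 Ras exchange factors, Ras genes and Ras GTPase activators other than RASGRF1, 19 were tested. Of these 19, edgeR called 2 under siNT and 1 under siNRF1, beside 2.21% and 6.21% of all genes. RASGRP2, a calcium-responsive exchange factor gene, was lower in the NRF1-ΔE7 line under both siRNAs, as RASGRF1 was (-1.76 and -2.25, edgeR adjusted p = 1.47e-04 and 7.31e-07). It averaged only 0.711 CPM, so these differences rest on few counts. RASA3, a Ras GTPase activator gene, was lower under siNT by edgeR (-0.50, adjusted p = 6.07e-05), at the fold threshold, and was not called by DESeq2. The list medians were -0.02 and -0.05. RASGRF2, the closest relative of RASGRF1, averaged 19.2 CPM and differed by -0.16 and -0.18, which was not called. TMEM179B, the relative of TMEM179, differed by 0.00 and 0.07 between the lines. Its siRNA response was a fall of 0.69, 0.75 and 0.68 on the log2 scale without a transgene, with NRF1-FL and with NRF1-ΔE7, each called, whereas TMEM179 rose with NRF1-FL.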

How the data were processed

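The 18 libraries were stranded mRNA-seq libraries. Adapters were removed by the authors with Cutadapt 1.18 and reads aligned with STAR 2.7.0f (hg38, GENCODE v30). DESeq2 1.46.0 is also listed in the submitters' processing notes. The authors deposited estimated counts per gene, not normalized (91.9% whole within 1e-09). Neither the counting tool nor its use of strand is stated in the sources used here. Another 18 columns of the table match no sample and were not used, and 45 second copies of pseudoautosomal genes were kept.

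Counts were rounded and filtered with filterByExpr (minimum count 10), leaving 17962 of 58870 genes. TMM factors ran from 0.944 to 1.07, and library totals had a median of 38.3 M. The edgeR 4.0.16 quasi-likelihood F test in R 4.3.3 was fitted to all 18 libraries with 6 condition means, leaving 12 residual degrees of freedom. It was two-sided, with Benjamini-Hochberg adjustment over all genes tested. SE is the absolute log2 fold-change divided by the square root of F, and 95% intervals follow from it. A test planned for the siRNA response of the NRF1-ΔE7 against the NRF1-FL line is not reported, because this term is built from the contrasts that chose the genes. edgeR was tested on simulated data.

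Positions are from GENCODE v44, matched for 99.4% of tested genes, and promoters from RefSeq. The members and lists were chosen with earlier results of these data known. Named genes are the 5 members, their 3 nearest tested genes on each side (1 is not reported here), list genes called between the lines under both siRNAs (up to 4 a list), the 5 genes most correlated with each member and the 5 of at least 1 CPM with the largest line difference in each direction. Other list genes, CDYL and the genes sharing a promoter run were named after their values were seen. The correlated genes were also limited to a mean of at least 1 CPM. Alternatives were a replicate block, RLE scaling, upper-quartile scaling, omission of the filter, fits of the compared libraries alone, DESeq2 1.42.0 and leaving out each library.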

Additional observations from a re-analysis of the deposited data

Results flagged for a closer look

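For 2 of the 5 genes the response to siNRF1 differed between backgrounds by an interaction test in edgeR, over 3 libraries a condition. The siRNA response of TMEM179 differed between the NRF1-FL line and cells without a transgene by 4.71 on the log2 scale (adjusted p = 1.45e-08). The siNRF1 libraries of the NRF1-FL line held 5.65 to 6.38 CPM of TMEM179, and those of the other backgrounds held 0 to 0.151 CPM. The siRNA response of RASGRF1 differed between the NRF1-FL line and cells without a transgene by 0.96 (adjusted p = 0.0188). Both terms use NRF1-FL libraries that also chose the genes, so their p-values are not independent of that choice. The RASGRF1 call was lost with DESeq2 (adjusted p = 0.0731), without the filter (0.0732) and without any 1 of the 3 siNT libraries that carry no transgene.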

How the results depend on the processing

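The line differences of the 5 genes kept their direction under every alternative run. Their siRNA calls and the differences between backgrounds kept their side of the threshold under RLE and upper-quartile scaling and under the replicate block, and the exceptions under other settings follow. RASGRF1 without a transgene lost its call with DESeq2 (0.60), without the filter (0.59) and with only the compared libraries (0.60), with a range of 0.52 to 0.63 when a library was left out. The RASGRF1 difference in siRNA response between the NRF1-FL line and no transgene lost its call with DESeq2 and without the filter (0.94 in each). It ranged from 0.90 to 1.03 without a library. The CHRM3 difference between the lines' siRNA responses, given without a test, ranged from -1.60 to -1.21. The PLIN2 difference in siRNA response between the NRF1-FL line and no transgene was near 0 at 0.0013. It turned to -0.0093 with DESeq2, -0.012 without the filter, -0.011 with RLE and -0.0012 with upper-quartile scaling. Without a library it ranged from -0.15 to 0.19.

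Without a library, siNRF1 against siNT ranged for CHRM3 from -0.54 to -0.34 in the NRF1-ΔE7 line (called without siNRF1+NRF1-DE7 replicate 3) and from -0.29 to 0.73 without a transgene. It ranged for PLIN2 in the NRF1-ΔE7 line from -0.25 to 0.0089, and for TENM1 without a transgene from -0.64 to -0.30 (called without siNRF1 replicate 1). The TMEM179 difference in siRNA response between the NRF1-ΔE7 line and no transgene ranged from -1.95 to 0.026. Under siNT the number of list genes called between the lines ranged from 2 to 5 and of neighbours from 1 to 2.

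Over all genes, the 28 calls for a different siRNA response of the NRF1-ΔE7 line and no transgene became 13 with DESeq2, 172 without the filter and 12 to 45 without a library. Replicate numbers did not pair the libraries, since deviations of same-numbered libraries correlated at -0.18 to 0.157 and 3 of 18 libraries correlated best with their own number. With the replicate block these calls numbered 45, and the block changed no call of the 5 genes. The cause of these shifts was not tested. At levels under 1 CPM a library holds few counts, which limits the precision for PLIN2, CHRM3, RASGRF1 and TMEM179. The same limit holds for TENM1 without a transgene and in the NRF1-FL line under siNRF1.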
